A study of Capra hircus with 3 samples.

Results

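The skeletal heavy chains of sarcomeric myosin were followed in the longissimus dorsi, the long back muscle, of goats (Capra hircus) at 3 postnatal stages. They were the entries whose product text in the deposited table reads myosin heavy chain 1, 2, 3, 4, 7B, 8 or 13, and they made up 7 of 24689 entries. The stages were kid at 2 months, youth at 9 months and adult at 24 months, with 1 RNA-seq library each. No breed, sex, treatment or genotype was given in the sources used here, nor whether a library held 1 animal or a pool. Without replicates no test could be run between stages, so no difference has a replicate check and each value describes a library, not a stage.

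Levels are deposited FPKM, that is fragments scaled to gene length and to library depth, so they can be compared between genes. Whole reads were recovered from the steps between FPKM values, from totals of 15829474 in kid, 14920689 in youth and 18399385 in adult. Ratios between libraries carry an exact 95% interval of those reads in parentheses, which covers counting error only. The tissue label names longissimus dorsi, whereas the extraction text names mammary tissue. All 4 mammary markers with an entry (CSN1S1, CSN2, CSN3 and LALBA) were at 0 FPKM in every library, and the 5 skeletal fibre markers summed to 36576 FPKM in kid, 46094 FPKM in youth and 53291 FPKM in adult. Of the 4 cardiac markers with an entry, NPPA and MYL7 were at 0 in every library, and the list summed to 11.5 FPKM in kid, 5.59 FPKM in youth and 8.62 FPKM in adult, most of it TNNI3. In bulk tissue, fewer fibres of a type and less messenger RNA per fibre cannot be told apart.

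A sarcomeric myosin is built from a pair of heavy chains, whose heads split ATP and pull on actin while their tails pack into the thick filament, and from light chains bound to the neck. Each heavy chain gene gives a motor of its own speed, and a muscle fibre is typed by the one it uses. In mammals, type 1 fibres use MYH7 and are slow, type 2A fibres use MYH2 and are fast and oxidative, type 2X fibres use MYH1 and are faster, and type 2B fibres use MYH4. MYH3 and MYH8 serve embryonic and perinatal muscle and return in regenerating fibres. MYH13 and MYH7B are best known from specialised muscles such as those that move the eye, and MYH7B carries the microRNA miR-499 in an intron.

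Among the 7 members MYH1 and MYH2 supplied almost all of the signal, and their order by FPKM turned round in the adult library. Another pair of abundant entries, described further on, is not in these shares. Together MYH1 and MYH2 made up 99.1% of the summed FPKM of the 7 members in kid, 98.9% in youth and 98.7% in adult. MYH1 (gene 102181426), the type 2X chain, was at 4693 FPKM in kid, 5942 FPKM in youth and 2636 FPKM in adult. MYH2 (gene 102181155), the type 2A chain, was at 3054 FPKM in kid, 2248 FPKM in youth and 3887 FPKM in adult. The youth library was thus the highest of the 3 for MYH1 and the lowest for MYH2, and the adult library was the reverse. Both stood among the most abundant entries: MYH1 ranked 13 in kid, 12 in youth and 22 in adult, and MYH2 ranked 18, 26 and 16 in the same libraries.

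Between youth and kid the pair differed moderately and in opposite directions. MYH1 was 1.27-fold higher in youth (1.26 to 1.27), and MYH2 was 1.36-fold lower (1.35 to 1.37). The larger step lay between adult and youth. In adult MYH1 was 2.25-fold lower (2.24 to 2.27), and MYH2 was 1.73-fold higher (1.72 to 1.74). In adult against kid MYH1 was 1.78-fold lower (1.77 to 1.80) and MYH2 was 1.27-fold higher (1.27 to 1.28).

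The ratio of the 2 chains within a library leaves out any scaling between libraries. MYH1 stood at 1.54 times MYH2 in kid (1.53 to 1.55), at 2.64 times in youth (2.63 to 2.66) and at 0.678 times in adult (0.673 to 0.683), all in FPKM. The ratio of adult was 3.90-fold lower than that of youth (3.86 to 3.93) and 2.27-fold lower than that of kid (2.24 to 2.29), while that of youth was 1.72-fold higher than that of kid (1.70 to 1.74). These changes in the ratio do not depend on the gene lengths, since each length cancels.

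**Figure D1:**
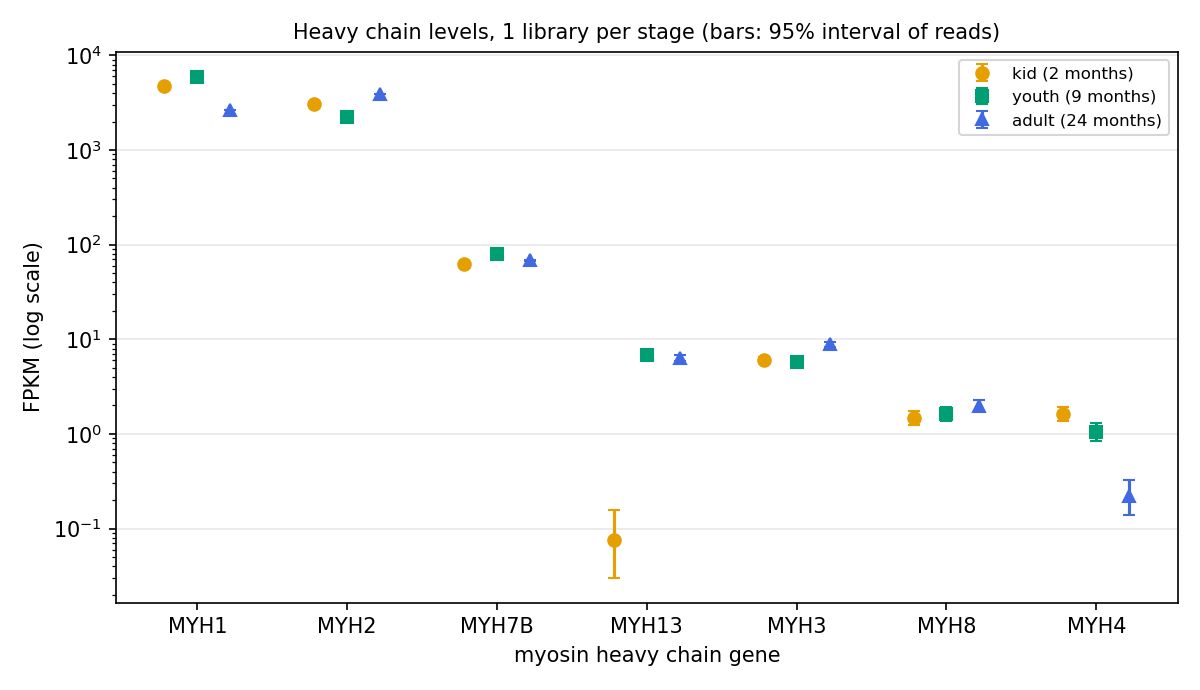
FPKM of the 7 heavy chains (log axis) in the kid, youth and adult libraries, 1 library per stage, with bars for the 95% interval of the reads. MYH1 and MYH2 lie far above the other members and change order in adult, and MYH13 is at 0.0758 FPKM in kid against 6.79 FPKM in youth.

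The order of the 2 chains within a library does depend on length. The length behind the MYH1 values came out at 2018 bases, whereas those of the other 6 members were 5698 to 6033 bases. A length of 6054 bases with 3 times the reads would give the same FPKM. At the recovered length MYH1 had 149927 reads in kid, 178901 reads in youth and 97864 reads in adult. MYH2 had 289376, 200779 and 428027 reads in the same libraries, so by reads MYH2 was the more abundant in all 3. In the shares of reads, not scaled to length, MYH1 held 33.6% in kid, 46.1% in youth and 18.3% in adult, and MYH2 held 64.9%, 51.8% and 80.0%. The direction of each difference between stages was the same on both scales.

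As shares of the summed FPKM, the make-up of the family was as follows. MYH1 held 60.0% in kid (59.9 to 60.2), 71.7% in youth (71.6 to 71.8) and 39.9% in adult (39.7 to 40.1). MYH2 held 39.1% in kid (38.9 to 39.2), 27.1% in youth (27.0 to 27.3) and 58.8% in adult (58.7 to 59.0). MYH7B held 0.800% in kid, 0.955% in youth and 1.03% in adult, and the other 4 members together held 0.118%, 0.184% and 0.264%. The summed level of the family was 7820 FPKM in kid, 8284 FPKM in youth and 6608 FPKM in adult, or 1.48%, 1.59% and 1.21% of all FPKM. By reads the order of the libraries differed, with 2.82% of the total in kid, 2.60% in youth and 2.91% in adult. That order rests on the recovered MYH1 length of 2018 bases, and could change if the true MYH1 reads are a multiple.

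**Figure D2:**
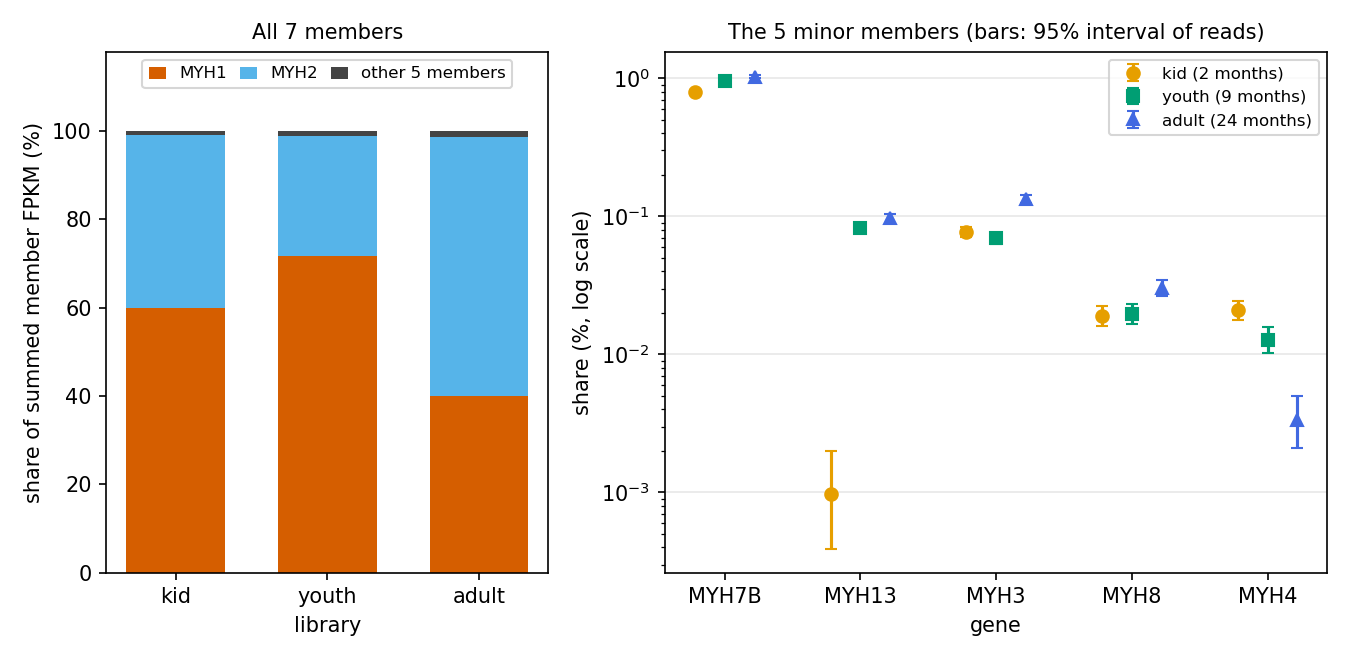
Left, share of each heavy chain in the summed FPKM of the 7 members, per library. Right, shares of the 5 minor members on a log axis, with bars for the 95% interval of the reads. MYH1 holds 60.0%, 71.7% and 39.9% in kid, youth and adult, and MYH7B is the largest of the minor members in every library.

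MYH4 (gene 102180883), the type 2B chain and in rodents the fastest of the limb muscle chains, was low in all 3 libraries and lowest in adult. It was at 1.63 FPKM in kid from 147 reads, 1.06 FPKM in youth from 90 reads and 0.219 FPKM in adult from 23 reads. Its level was 1.54-fold lower in youth than in kid (1.18 to 2.02), 4.83-fold lower in adult against youth (3.03 to 8.0) and 7.43-fold lower in adult than in kid (4.77 to 12.1). Its mean of 0.969 FPKM lay just under the minimum of 1 FPKM used to count differences, so it is not among the members counted further on. MYH4 had 0.980 reads per 1000 MYH1 reads in kid, 0.503 in youth and 0.235 in adult, so it was lower in adult against its neighbour MYH1 as well.

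MYH7B (gene 102175493), the slow-tonic chain, was the third most abundant member, far under the main pair and far above the rest. It was at 62.6 FPKM in kid, 79.1 FPKM in youth and 68.1 FPKM in adult, from 5703, 6799 and 7211 reads. Its level was 1.26-fold higher in youth than in kid (1.22 to 1.31), 1.16-fold lower in adult against youth (1.12 to 1.20) and 1.09-fold higher in adult than in kid (1.05 to 1.13). The difference between adult and youth was -0.21 on the log2(FPKM + 1) scale, and it turned to 0.11 when the libraries were scaled to the same sum of MYH1 and MYH2. Its product text calls it a beta cardiac chain. Of the cardiac markers, NPPA and MYL7 were at 0 in every library. TNNI3 was at 11.2 FPKM in kid, 5.42 FPKM in youth and 8.38 FPKM in adult, and RYR2 at 0.304, 0.172 and 0.238 FPKM. In the goat assembly ARS1.2 the gene of miR-499 lies within the span of MYH7B.

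Of the developmental chains, MYH3 was highest in adult and MYH8 differed less, and neither was absent from any library. MYH3 (gene 102181716), the embryonic chain, was at 6.05 FPKM in kid, 5.73 FPKM in youth and 8.83 FPKM in adult, from 564, 504 and 957 reads. MYH3 was 1.54-fold higher in adult than in youth (1.38 to 1.72) and 1.46-fold higher in adult than in kid (1.31 to 1.62), while the ratio of youth to kid was 0.948 (0.839 to 1.07). MYH8 (gene 102180624), the perinatal chain, was at 1.49 FPKM in kid, 1.63 FPKM in youth and 2.00 FPKM in adult, from 142, 147 and 222 reads. Its ratio was 1.10 for youth to kid (0.866 to 1.39), 1.22 for adult to youth (0.990 to 1.52) and 1.35 for adult to kid (1.08 to 1.67), so that the counting interval left out 1 for the last of these.

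The low chains could in part hold reads that belong to their abundant neighbours, because the genes are alike in sequence and how reads matching more than 1 gene were handled was not given in the sources used here. Set against MYH2, MYH3 had 1.95 reads per 1000 MYH2 reads in kid, 2.51 in youth and 2.24 in adult. The counting interval of each change in this ratio left out 1. The change was 1.29 for youth to kid (1.14 to 1.45), 0.891 for adult to youth (0.800 to 0.992) and 1.15 for adult to kid (1.03 to 1.27). MYH8 had 0.491, 0.732 and 0.519 reads per 1000 MYH2 reads in the same libraries. Set against MYH1, MYH3 ranged more widely, with 3.76 reads per 1000 MYH1 reads in kid, 2.82 in youth and 9.78 in adult. The part of such reads in the values of MYH3, MYH8 and MYH4 was not tested.

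MYH13 (gene 102180345), which other mammals use in the extraocular and laryngeal muscles, was nearly missing in kid and present in both later libraries. It was at 0.0758 FPKM in kid from 7 reads, 6.79 FPKM in youth from 591 reads and 6.42 FPKM in adult from 689 reads. The youth level was 89.6-fold that of kid (43.2 to 224) and the adult level was 84.7-fold that of kid (40.9 to 211), while the ratio of adult to youth was 0.945 (0.846 to 1.06). In youth against kid its difference of 2.86 on the log2(FPKM + 1) scale was rank 1 among the 12121 genes with a mean level of at least 1 FPKM, and in adult against kid its difference of 2.79 was rank 2. With a mean of 4.43 FPKM, MYH13 passed that minimum only through the youth and adult libraries. The ranks therefore describe its values and are no further evidence of a difference. MYH13 followed neither abundant chain: it had 0.0242 reads per 1000 MYH2 reads in kid, 2.94 in youth and 1.61 in adult, and 0.0467, 3.30 and 7.04 reads per 1000 MYH1 reads. At its highest it held 0.0971% of the summed FPKM of the family, in adult.

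Counted over the family, 6 of the 7 members had a mean of at least 1 FPKM, MYH13 only through the youth and adult libraries. A gene counted as at least 2-fold apart where its log2(FPKM + 1) differed by 1 or more. In youth against kid MYH13 was the 1 member at least 2-fold higher, against 0.421% of all 12121 genes, and 0 members were at least 2-fold lower, against 0.627%. In adult against youth 0 members were at least 2-fold higher, against 1.01% of all genes, and MYH1 was the 1 member at least 2-fold lower, against 1.07%. MYH1 differed there by -1.17 on the log2 scale, and by -0.95 after quantile normalization, which ends its count. In adult against kid MYH13 was again the 1 member at least 2-fold higher, against 0.536%, and 0 members were at least 2-fold lower, against 1.22%; without the minimum level MYH4 would be 1 such member, at -1.11. With so few members these counts are a description of single genes.

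By the counting interval alone, 3 of the 7 members were higher in youth than in kid (MYH1, MYH7B and MYH13) and 2 were lower (MYH2 and MYH4), where 11.6% of all genes were higher and 26.9% were lower. In adult against youth 2 were higher (MYH2 and MYH3) and 3 were lower (MYH1, MYH7B and MYH4), where 22.3% and 27% of all genes were. In adult against kid 5 were higher and 2, MYH1 and MYH4, were lower, where 16.7% and 34.6% of all genes were. Abundant genes pass this mark at smaller differences, and MYH1, MYH2 and MYH7B all had over 1000 reads in every library. The shares of all genes are of the 12121 with a mean of at least 1 FPKM. The 7 members include MYH4, which lay under that minimum and was counted as lower in each comparison. The median difference of the 6 members was 0.21 in youth against kid, 0.06 in adult against youth and 0.31 in adult against kid, on the log2(FPKM + 1) scale. Over all 7 members, MYH4 included, the medians were 0.08, -0.07 and 0.27, so the sign in adult against youth rested on whether MYH4 was counted. The medians of all 12121 genes were -0.08, -0.02 and -0.10.

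**Figure D3:**
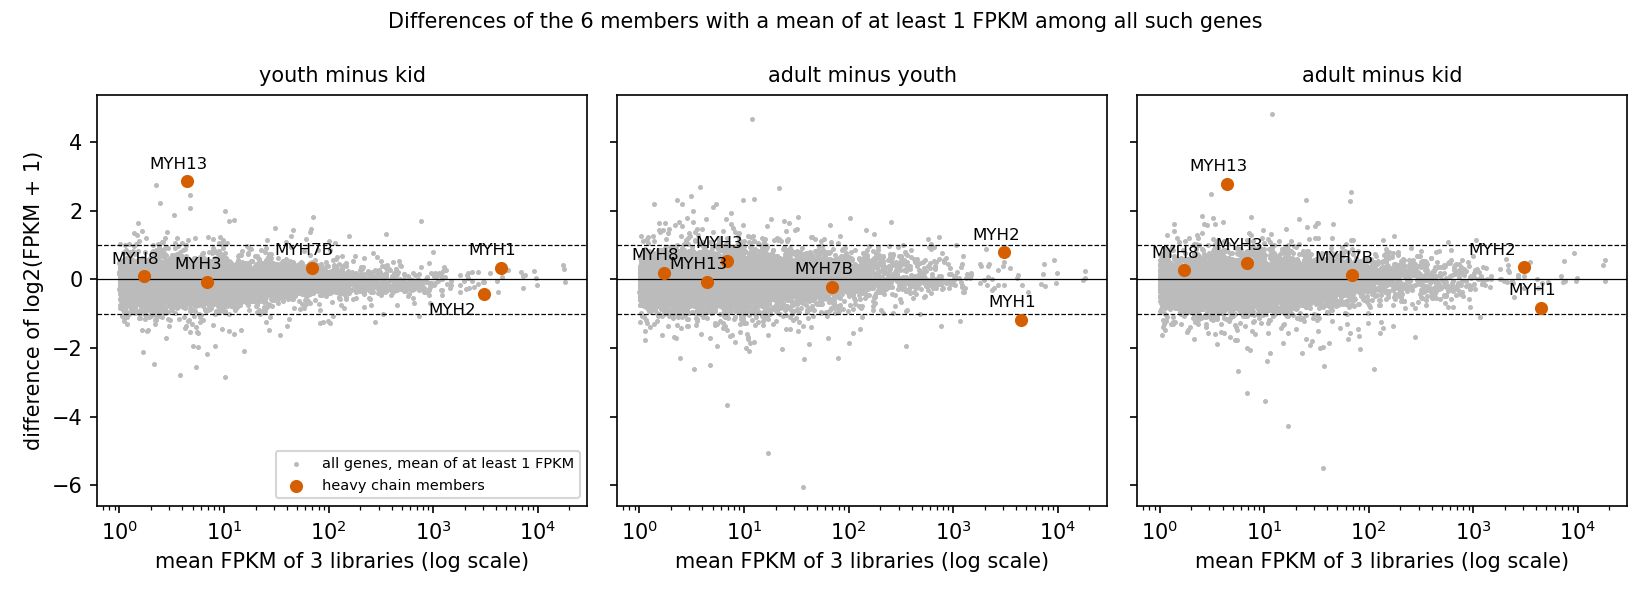
Difference of log2(FPKM + 1) against mean FPKM (log axis) for the 12121 genes with a mean level of at least 1 FPKM (grey) and the 6 heavy chains among them (named), in the 3 comparisons. MYH13 lies at the upper edge in youth minus kid at 2.86 and in adult minus kid at 2.79, and MYH1 lies at -1.17 in adult minus youth.

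6 of the 7 members lie together on 1 chromosome of the assembly ARS1.2, in the order MYH13, MYH8, MYH4, MYH1, MYH2 and MYH3, with 1 gene of a long non-coding RNA among them. MYH7B lies elsewhere. The abundant pair are next to each other in this row, and each has a low member on its other side, MYH4 beside MYH1 and MYH3 beside MYH2. The low neighbours did not share a pattern: in adult against youth MYH4 was 4.83-fold lower and MYH3 was 1.54-fold higher. At the far end MYH13 and its neighbour MYH8 also differed in pattern, since the youth to kid ratio was 89.6 for MYH13 and 1.10 for MYH8.

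Other heavy chain entries bear on how complete this account is. MYH7, the type 1 slow chain, MYH6 and MYH16 had no entry under those names (not analysed here), so the shares above are shares among 7 chains and not of all fibre types. An entry described as myosin-6-like (gene 102190686, recovered length 350 bases) was at 2176 FPKM in kid, 1835 FPKM in youth and 2512 FPKM in adult, or 27.8%, 22.1% and 38.0% of the summed FPKM of the members. At that short length the entry had 12055 reads in kid, 9581 in youth and 16179 in adult, where MYH2 had 289376, 200779 and 428027. The ratio of the myosin-6-like entry was 0.843 for youth to kid (0.821 to 0.866), 1.37 for adult to youth (1.34 to 1.40) and 1.15 for adult to kid (1.13 to 1.18). These directions were those of MYH2. The entry is not the unconventional myosin MYO6, which had an entry of its own at 3.34, 2.89 and 1.87 FPKM.

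An uncharacterized entry (gene 102181869, recovered length 11287 bases) carried the authors' terms for the myosin complex and for motor activity. These terms are broad, since 131 entries carried both and 40 of those were described as keratins. The entry was at 1351 FPKM in kid, 982 FPKM in youth and 1329 FPKM in adult. Its ratio was 0.727 for youth to kid (0.722 to 0.731), 1.35 for adult to youth (1.35 to 1.36) and 0.984 for adult to kid (0.978 to 0.989). In ARS1.2 the gene of miR-208b lies within the span of this entry, a microRNA that in other mammals lies in an intron of MYH7. No gene name was given to it here. Counted together with the members and the described entries, it put MYH1 at 41.4% in kid, 53.5% in youth and 25.2% in adult.

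**Figure D4:**
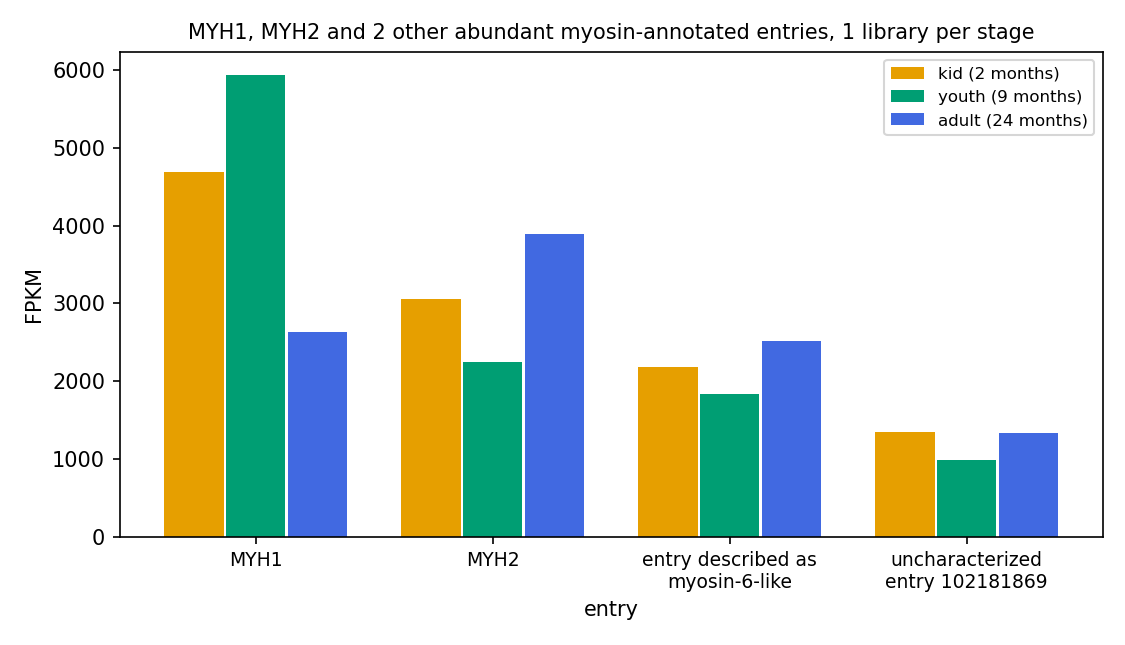
FPKM of MYH1, MYH2, the myosin-6-like entry and the uncharacterized entry in the kid, youth and adult libraries, 1 bar per library from 0. MYH1 is highest in youth at 5942 FPKM, while the other 3 entries are lowest there, at 2248, 1835 and 982 FPKM.

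MYH15, an ancient member of the family that is little used in mammalian limb muscle, was at 0.0560 FPKM in kid from 6 reads, 0.228 FPKM in youth from 23 reads and 0.169 FPKM in adult from 21 reads. The non-sarcomeric heavy chains, which serve smooth muscle and the cytoskeleton, were all under 50 FPKM. MYH9 was at 49.3 FPKM in kid, 48.1 FPKM in youth and 37.6 FPKM in adult, and MYH10 at 8.31, 8.86 and 11.4 FPKM. The smooth muscle chain MYH11 was at 28.6 FPKM in kid, 14.5 FPKM in youth and 27.6 FPKM in adult, so it was lowest in the library in which MYH1 was highest. MYH14 was at 26, 19.6 and 21.6 FPKM. None of these 4 was 2-fold apart on the log2(FPKM + 1) scale in any of the 3 comparisons. Of all 12121 genes at most 1.22% were, in either direction of a comparison.

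The partners of fast myosin did not all follow MYH1. Of 12 fast fibre genes listed, 10 had an entry and a mean of at least 1 FPKM. In youth against kid 8 of these were higher and 2 were lower, with a median difference of 0.18 on the log2(FPKM + 1) scale. In adult against youth 3 were higher and 7 were lower, with a median of -0.16, and in adult against kid 4 were higher and 6 were lower, with a median of -0.04. Of all 12121 genes, 4322 were higher and 7799 lower in youth against kid, 5739 and 6382 in adult against youth, and 4541 and 7580 in adult against kid. The medians were small beside the -1.17 of MYH1 in adult against youth. MYLPF, the regulatory light chain of fast fibres, was at 10021 FPKM in kid, 8969 FPKM in youth and 10261 FPKM in adult, and TNNT3, the fast troponin T, was at 2945, 3368 and 4212 FPKM. MYLK2, the kinase that phosphorylates that light chain in skeletal muscle, was at 354 FPKM in kid, 472 FPKM in youth and 254 FPKM in adult, the order of MYH1. PVALB, a calcium buffer of fast fibres in rodents, was the 1 fast partner at least 2-fold apart, at 1.33, 11.7 and 1.24 FPKM. Its level was 8.84-fold higher in youth than in kid (4.84 to 17.7) and 9.49-fold lower in adult against youth (5.30 to 18.4). In each comparison at most 1.22% of all 12121 genes were 2-fold apart in either direction.

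The partners of slow myosin differed little at the median, and 2 light chains went opposite ways. Of 12 listed genes 11 had an entry and a mean of at least 1 FPKM. Their median difference was -0.12 in youth against kid, 0.02 in adult against youth and 0.03 in adult against kid, on the log2(FPKM + 1) scale. In youth against kid 4 were higher and 7 were lower, where 4322 and 7799 of all 12121 genes were. In adult against youth 6 were higher and 5 were lower, where 5739 and 6382 of all genes were. In adult against kid it was 7 and 4, where 4541 and 7580 of all genes were. MYL3, the essential light chain of slow and ventricular muscle, was at 853 FPKM in kid, 406 FPKM in youth and 948 FPKM in adult. It was 2.10-fold lower in youth than in kid (2.01 to 2.20) and 2.33-fold higher in adult than in youth (2.24 to 2.44). MYL6B, an essential light chain of slow muscle and non-muscle cells, was at 410, 1338 and 523 FPKM. It was 3.26-fold higher in youth than in kid (3.16 to 3.37) and 2.56-fold lower in adult against youth (2.49 to 2.63). MYL3 and MYL6B were the 2 slow partners at least 2-fold apart, 1 in each direction in both of these comparisons. Of all 12121 genes 0.421% were higher and 0.627% lower in youth against kid, and 1.01% and 1.07% in adult against youth. MYL2, the slow regulatory light chain, was at 6456 FPKM in kid, 7509 FPKM in youth and 6873 FPKM in adult, and TPM3, the slow tropomyosin, at 1964, 1512 and 1987 FPKM.

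**Figure D5:**
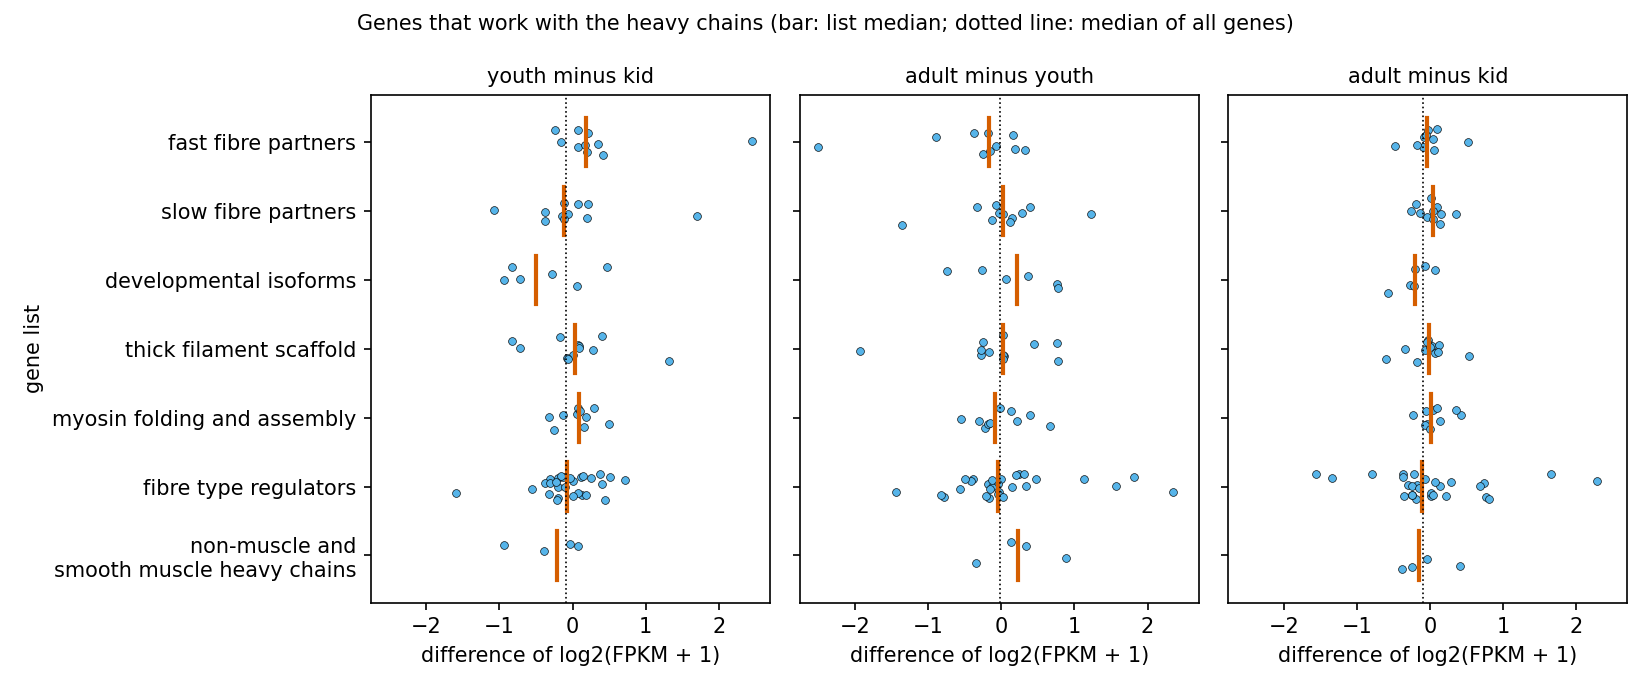
Difference of log2(FPKM + 1) of the genes listed as partners and regulators of the heavy chains, 1 point per gene, by list and comparison; short bars are list medians and the dotted line is the median of all genes. Most lists centre near 0, and single genes such as MYL6B, MYL3, TRIM63 and PPARGC1A lie far from their list.

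Other developmental genes of muscle, among them isoforms of the contractile apparatus, were lower in youth than in kid about as often as all genes were. The list also held genes outside that apparatus, such as CHRNG, a subunit of the acetylcholine receptor. Of 8 listed 6 had a mean of at least 1 FPKM, and 4 of them were lower in youth than in kid, with a median difference of -0.50, where 7799 of all 12121 genes were lower. In adult against youth 4 of the 6 were higher, with a median difference of 0.21, where 5739 of all genes were higher. The median difference of the 6 in adult against kid was -0.21. ACTC1, the cardiac actin that embryonic skeletal muscle also uses, was at 34.0 FPKM in kid, 17.3 FPKM in youth and 22.5 FPKM in adult. MYBPH, a myosin binding protein, was at 168, 93.7 and 159 FPKM, and MYOM3, an M-band protein, at 69.3, 41.8 and 72.5 FPKM. None of the 6 was 2-fold apart on the log2(FPKM + 1) scale, where at most 1.22% of all 12121 genes were in either direction. By the plain ratio CHRNG, a low gene outside the naming rule, was 2.73-fold lower in adult against youth (1.55 to 4.96). It had 19 reads in adult and 42 in youth.

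The genes listed for the thick filament scaffold, which include ubiquitin ligases beside the proteins that hold it in place, differed little at the median. All 12 listed had a mean of at least 1 FPKM, and the medians of their differences were 0.04 in youth against kid, 0.02 in adult against youth and -0.02 in adult against kid. MYBPC1, the slow myosin binding protein C, was at 2408 FPKM in kid, 2305 FPKM in youth and 2332 FPKM in adult. TRIM63, the ubiquitin ligase MuRF1 that marks myosin heavy chain for breakdown, was the 1 gene of the list at least 2-fold apart, at 257, 644 and 168 FPKM. It was 2.51-fold higher in youth than in kid (2.44 to 2.58) and 3.83-fold lower in adult against youth (3.71 to 3.95). The youth library was thus the highest for both TRIM63 and MYH1. Over all 12121 genes at most 1.22% were 2-fold apart in either direction of a comparison.

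Of the 10 chaperones and methyltransferases that fold and assemble myosin, none was 2-fold apart in any comparison. Of all 12121 genes at most 1.22% were, in either direction. The medians of the 10 were 0.09 in youth against kid, -0.09 in adult against youth and 0.02 in adult against kid. HSP90AA1, the chaperone that works with UNC45B on the myosin head, was at 370 FPKM in kid, 522 FPKM in youth and 357 FPKM in adult. SMYD1, a methyltransferase needed for thick filament assembly, was at 42.3, 52.1 and 57.0 FPKM. CRYAB, a small heat shock protein of slow and cardiac muscle, was at 1197, 956 and 1524 FPKM.

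Among the regulators of fibre type, a few genes differed strongly while the list as a whole did not. Of 30 listed 28 had a mean of at least 1 FPKM, and the medians were -0.07 in youth against kid, -0.04 in adult against youth and -0.11 in adult against kid. In youth against kid 0 were at least 2-fold higher and 1 was lower, against 0.421% and 0.627% of all 12121 genes. In adult against youth 4 were higher and 1 was lower, against 1.01% and 1.07%. In adult against kid 2 were higher and 2 were lower, against 0.536% and 1.22%. PPARGC1A, the coactivator of oxidative metabolism, was at 26.1 FPKM in kid, 43.3 FPKM in youth and 130 FPKM in adult, and was 3.01-fold higher in adult than in youth (2.90 to 3.13). ESRRG, a nuclear receptor of oxidative fibres, was at 12.2, 3.40 and 21.4 FPKM, and was 6.30-fold higher in adult than in youth (5.45 to 7.32). Both were highest in the library in which MYH2 was highest. ESRRG was also lowest in youth, as MYH2 was, whereas PPARGC1A was lowest in kid. MYOG and MYF6, described next, are also among the genes behind these counts. Those outside the naming rule, named after their values were seen, were ESRRA, at 1.13 in adult against youth on the log2(FPKM + 1) scale, and RCAN1, at -1.45 in adult against youth and -1.55 in adult against kid.

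Of the myogenic factors, MYOG was at 19.0 FPKM in kid, 17.0 FPKM in youth and 62.0 FPKM in adult, and was 3.65-fold higher in adult than in youth (3.04 to 4.42). MYF6, the factor most abundant in mature fibres, was at 247, 167 and 96.6 FPKM, and was 2.56-fold lower in adult than in kid (2.44 to 2.69). Markers of other cell types also moved between the libraries. The 3 adipocyte markers summed to 239 FPKM in kid, 95.7 FPKM in youth and 107 FPKM in adult, the 2 tendon markers with an entry to 2.43, 0.761 and 5.93 FPKM, and the 3 satellite cell markers to 12.7, 12.3 and 11.3 FPKM. The 5 smooth muscle markers summed to 4212, 4065 and 4246 FPKM, but nearly all of that was DES, which skeletal fibres also make. Of the other 4, ACTG2 was at 9.32 FPKM in kid, 4.50 FPKM in youth and 15.4 FPKM in adult, CNN1 at 26.2, 21.2 and 25.04 FPKM and SMTN at 33.0, 31.2 and 39.98 FPKM, so that these and MYH11 were all lowest in youth. The part of these cell types in the differences of the heavy chains was not tested.

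Genes most like a member were found by the distance between their 2 differences, youth minus kid and adult minus youth, on the log2(FPKM + 1) scale over the 3 libraries. Only entries with a gene symbol were searched, and the members were left out. For MYH1, among the 4604 such genes that reach a mean of 10 FPKM, the nearest were C1QA at a distance of 0.02 and THBD at 0.09. IGFBP5, NR1D2 and TUBB6 followed at 0.12 to 0.13. For MYH2 the nearest were PTGES2 at 0.02, PRKAG2 at 0.03, then BSG, THEM4 and PPM1J at 0.04 to 0.07. For MYH13, among the 10266 such genes with a mean level of at least 1 FPKM, none came close. The nearest was METTL21C at a distance of 1.19, at 30.6 FPKM in kid, 111 FPKM in youth and 69.6 FPKM in adult. FNIP2, METRNL, TMEM159 and IGFN1 followed at 1.39 to 1.63. With 3 libraries many genes can lie near a member.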

How the data were processed

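RNA-seq of goat longissimus dorsi gave 1 library per stage. The authors deposited 1 table of FPKM with a column per stage; FastQC, TopHat2 and DESeq are named without version or role, per the submitters' processing notes. Neither the genome build nor the counting method, nor how reads matching more than 1 gene were handled, was given in the sources used here. The members and the 8 gene lists were chosen with earlier results of these data known.

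Whole reads, gene lengths and library totals were recovered from the steps between deposited FPKM values: all 17211 entries above 0 in at least 2 libraries gave whole reads, within 5e-05 of a read beyond the rounding of the values. Reads and length can share a common factor, so that true reads may be a multiple. The recovery was tested on simulated data. No count test was run, for want of replicates.

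Differences were taken as log2(FPKM + 1), which understates those of low genes, among 12121 genes with a mean level of at least 1 FPKM. Ratios have exact conditional binomial 95% intervals of the reads; intervals of shares are Clopper-Pearson, and those of a change in a ratio rest on the log odds. Reads are not independent molecules. No test and no p-value was computed. Names and neighbouring genes came from RefSeq genes of ARS1.2, matched by gene number, and otherwise from product text. The text names every member, from each list the most abundant gene and up to 3 with the largest difference, and the 5 genes most like MYH1, MYH2 and MYH13; the markers named singly and MYO6 are outside this rule. One of the marker lists is not reported here. Pseudocounts, minimum levels, scalings and other ways to form the shares were tried as alternatives, of which 4 were added after seeing the data. Python 3.11.15, numpy 2.4.6, scipy 1.17.1 and pandas 2.3.3 were used.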

Additional observations from a re-analysis of the deposited data

How the results depend on the processing

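No paired analysis was possible because each stage had 1 library, and for the same reason no library could be left out. Of 126 differences of the members under the alternatives, 122 kept their sign; MYH7B in adult against youth turned to 0.11 when libraries were scaled to the same sum of MYH1 and MYH2, an alternative added after seeing the data. The 3 others concerned MYH13 in adult against youth and MYH3 in youth against kid, whose counting intervals hold 1. That scaling also moved the median of all genes to 0.26 in adult against youth, -0.15 in youth against kid and 0.11 in adult against kid, and median ratio scaling moved it to 0.02 in adult against kid.

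Genes at least 2-fold apart numbered 127 in youth against kid, 252 in adult against youth and 213 in adult against kid. With a pseudocount of 0.1 they numbered 300, 555 and 451, with a pseudocount of 5 they numbered 45, 82 and 71, and with a mean of at least 5 FPKM they numbered 64, 160 and 122. In youth against kid 51 were higher and 76 lower, against 62 and 56 after quantile normalization. In adult against kid 65 were higher and 148 lower, against 92 and 105 after median ratio scaling and 90 and 100 after quantile normalization. At a mean of at least 5 FPKM, where MYH13 is left out, 0 members were 2-fold higher in youth or adult against kid. Without a minimum level 1 member was 2-fold lower in adult against kid, and after quantile normalization 0 were lower in adult against youth.

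The share of MYH1 in kid, youth and adult was 60.6%, 72.5% and 40.4% beside MYH2 alone, 33.6%, 46.1% and 18.3% by reads, 60.3%, 72% and 40.2% by reads with MYH1 at 3 times its length, 47.0%, 58.7% and 28.9% with the other described sarcomeric entries, and 41.4%, 53.5% and 25.2% with the uncharacterized entry as well. The share of MYH2 was 39.4%, 27.5% and 59.6%, then 64.9%, 51.8% and 80.0%, then 38.8%, 26.9% and 58.6%, then 30.6%, 22.2% and 42.6%, then 26.9%, 20.3% and 37.2% under the same settings, and 97.7%, 96.0% and 97.8% without MYH1. Under each setting that holds both, MYH1 was highest in youth and lowest in adult and MYH2 the reverse. The members' share of all FPKM was 1.49% in kid and 1.22% in adult over the genes that reach a mean of 1 FPKM. As a share of recovered reads, with MYH1 at its recovered length, it was 2.96% in kid, 2.74% in youth and 3.02% in adult. Depth limits MYH4 in adult (23 reads) and MYH13 in kid (7 reads) most. The causes of these shifts were not tested.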

Other observations

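The unconventional myosins, most of which carry cargo or serve the cytoskeleton, were looked at beside the heavy chains. Of 25 entries 14 had a mean of at least 1 FPKM, and those named here were chosen after their values were seen. MYO18A and MYO18B, myosins known from striated muscle, were the most abundant: MYO18A was at 66.4 FPKM in kid, 67.6 FPKM in youth and 72.4 FPKM in adult, and MYO18B at 45.7, 49.7 and 60.0 FPKM. MYO18B was 1.31-fold higher in adult than in kid (1.27 to 1.36). MYO19, the myosin of the mitochondrial surface, was at 6.10 FPKM in kid from 327 reads, 2.73 FPKM in youth from 138 reads and 11.5 FPKM in adult from 719 reads. MYO19 was 2.23-fold lower in youth than in kid (1.83 to 2.75) and 4.23-fold higher in adult than in youth (3.52 to 5.11), so it was lowest and highest in the same libraries as MYH2.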
